A study of Homo sapiens with 4 samples.

Results

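Long intergenic noncoding RNAs (lincRNAs) were measured in Hep3B, a human hepatocellular carcinoma cell line, in which UNC50, a Golgi membrane protein gene, was knocked down by RNA interference. The loci were all probes other than controls that the array design names by the word lincRNA and an interval (chromosome, first base, last base and strand on the build hg19). Loci on chromosomes X and Y were left out, which left 7048 loci of the 34809 names on the array, read by 7873 probes. They cover 5036 intervals, of which 2012 are probed on both strands, and the intervals run from 70 to 1392201 bases with a median of 12126. Entries are not independent, since 4155 of the 7048 loci overlap another locus on their own strand. The 4 samples were Hep3B cells carrying pLKO.1 plasmids, introduced by lipid transfection and selected with puromycin. One sample (shR-MOCK) carried a mock hairpin, and shR-467, shR-554 and shR-749 each carried a hairpin against UNC50 mRNA, named for the base of the mRNA it targets (467, 554 and 749). Each was hybridised once to an Agilent array in 1 colour, so the control group is 1 array and the 3 hairpins served as replicates of the knockdown. The cells were transfected pools of 1 line, and nothing in the labels ties the samples to separate cultures, so p-values cover only the spread between these arrays.

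UNC50 fell with every hairpin. Its signal was 5010 for the mock and 1050, 853 and 947 for hairpins 467, 554 and 749, or 24%, 13.7% and 18.7% of the mock after scaling. The scanner software marks a spot as well above background when it is clearly brighter than its surroundings, and 67.6% to 73.6% of all spots carried this mark. The negative controls of shR-554 stood apart, with a 99th percentile of 71.7 against 5.18 to 16.3 on the other arrays. The liver markers ALB, AFP, TTR, APOA1, APOB, SERPINA1, TF and HNF4A were well above background on all 4 arrays, and TTR and APOA1 were at least 1.5-fold higher with every hairpin. The fibroblast markers COL1A1, COL1A2 and DCN were not well above background on all 4 arrays, while the leukocyte markers PTPRC and CD68 and the endothelial markers PECAM1, VWF and CDH5 were, with mock signals between 36.6 and 3309.

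LincRNAs are transcripts longer than small RNAs that carry no long open reading frame and lie outside protein-coding genes. Many were first mapped as stretches of chromatin with the histone marks of active promoters and transcribed bodies, which is why the array names them by interval and strand. A few are well studied. NEAT1 is made from 1 start as a short and a long transcript, and the long one is the scaffold of nuclear paraspeckles. MALAT1 is an abundant nuclear speckle RNA whose end is cut by RNase P rather than polyadenylated, and a U-rich element near that end folds into a triple helix that protects it. A similar element lies at the end of long NEAT1.

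The probes that carry the main differences are 60 bases long and are shown as the array files give them, 5′ to 3′ in the sense of the named strand. The first set runs along the NEAT1 span from the start side to the end side and is shown because its probes moved in opposite directions. The next 2 probes lie in the MALAT1 span. Capitals in both sets mark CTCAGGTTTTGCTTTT, the longest run of bases that the end probe of the first set shares with the first MALAT1 probe. With both strands searched, this run was in 2 of the 7873 locus probes (0.0254%) and in 2 of all 42405 probes (0.00472%).
chr11:65192209-65192268, forward: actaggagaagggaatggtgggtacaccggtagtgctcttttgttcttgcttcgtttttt
chr11:65193578-65193637, forward: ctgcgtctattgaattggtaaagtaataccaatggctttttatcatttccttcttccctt
chr11:65193885-65193944, forward: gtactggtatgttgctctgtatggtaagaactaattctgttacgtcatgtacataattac
chr11:65203430-65203489, forward: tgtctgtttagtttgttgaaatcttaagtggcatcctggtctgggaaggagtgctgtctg
chr11:65212941-65213000, forward: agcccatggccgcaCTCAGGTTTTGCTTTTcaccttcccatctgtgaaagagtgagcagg
chr11:65273511-65273570, forward: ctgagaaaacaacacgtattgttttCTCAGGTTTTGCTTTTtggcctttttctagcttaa
chr11:65273714-65273773, forward: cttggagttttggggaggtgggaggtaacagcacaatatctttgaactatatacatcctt

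The next sequence belongs to the locus with the highest mean rise among those higher with every hairpin. All of its bases are in capitals because a probe named SCARNA16 elsewhere on the array has the same 60 bases.
chr17:75085516-75085575, forward: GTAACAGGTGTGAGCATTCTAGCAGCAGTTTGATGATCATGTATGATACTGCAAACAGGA

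The last set has G and C in capitals. It holds the locus with the largest fall, an overlapping locus that stayed near the mock level, and 4 of the 10 brightest loci, whose base composition ranged widely.
chr3:194017952-194018011, reverse: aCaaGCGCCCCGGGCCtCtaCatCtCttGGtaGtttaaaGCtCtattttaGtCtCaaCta
chr3:194023562-194023621, reverse: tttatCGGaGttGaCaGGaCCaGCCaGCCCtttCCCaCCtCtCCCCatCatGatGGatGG
chr9:138799715-138799774, reverse: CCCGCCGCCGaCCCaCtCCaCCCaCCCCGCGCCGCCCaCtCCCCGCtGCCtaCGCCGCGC
chr20:31172489-31172548, forward: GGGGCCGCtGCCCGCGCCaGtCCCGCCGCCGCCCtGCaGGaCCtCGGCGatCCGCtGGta
chr18:5232876-5232935, reverse: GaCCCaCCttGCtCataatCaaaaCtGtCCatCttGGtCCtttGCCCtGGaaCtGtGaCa
chr1:92065984-92066043, forward: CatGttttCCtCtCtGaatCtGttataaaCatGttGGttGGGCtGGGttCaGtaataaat

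Most lincRNA probes gave a signal in these cells. Of the 7873 locus probes, 66.6% were well above background on the mock array, and 62.4%, 57.3% and 60.6% on those of the hairpins 467, 554 and 749, so the mock array had the highest share and shR-554 the lowest. In these bulk samples, fewer expressing cells and less RNA per cell cannot be told apart. Probes of names matched to RefSeq protein-coding genes (24244 probes) gave 77.3%, 74.5%, 72.4% and 74.5% in the same order, with the same highest and lowest array. Probes of the 620 names matched to RefSeq long noncoding RNA genes gave lower shares than the loci, between 41.1% and 49.5%. At the level of loci, 3819 of the 7048 (54.2%) had a probe well above background on all 4 arrays, and 1840 (26.1%) had none on any array.

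**Figure D1:**
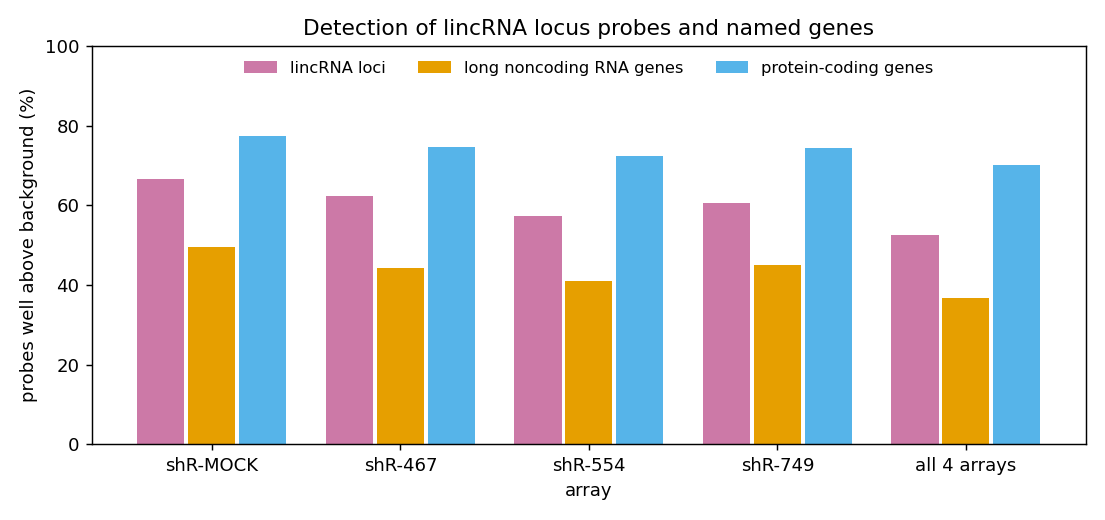
Bars give the percentage of probes well above background on each array and on all 4 arrays, for probes of lincRNA loci (7873), of named long noncoding RNA genes (713) and of protein-coding genes (24244). On each array the lincRNA loci lie between the other groups, with 52.5%, 36.7% and 70.2% on all 4 arrays.

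Detection followed the base composition of the probe more steeply in lincRNA loci than in protein-coding genes. Of the locus probes with up to 35% G and C, 29.5% were well above background on all 4 arrays, rising step by step to 91.7% of those above 60%. In protein-coding genes the same classes ran from 65.4% to 90.1%, so the groups were far apart at low G and C content and close together at high content. The median G and C content was 45% in the locus probes and 43.3% in the protein-coding probes. The share also varied between chromosomes, from 36.25% of the probes on chromosome 18 to 67.9% on chromosome 17. Whether composition, chromosome or transcript level set these shares was not tested.

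Where lincRNA loci were detected, they were dim. The median signal of the 4130 locus probes with that mark on every array was 122 for the mock and 115, 145.5 and 120 for hairpins 467, 554 and 749. On the scaled log2 level (the log2 of the signal over the 75th percentile of its array) the medians were -3.20, -3.09, -3.26 and -3.24 for the loci and -0.62, -0.65, -0.60 and -0.64 for protein-coding genes. The difference between the medians was -2.57 ± 0.09 (SD, n = 4 arrays) and was negative on every array. Named long noncoding RNA genes lay between, with medians of -2.57 to -2.51. No more than 8.67% of the locus probes, against about 41.2% of the protein-coding probes on the mock array, were above the 75th percentile of their array. A probe's brightness depends on its sequence as well as on its transcript, so these are differences between groups of probes and not between transcript numbers.

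**Figure D2:**
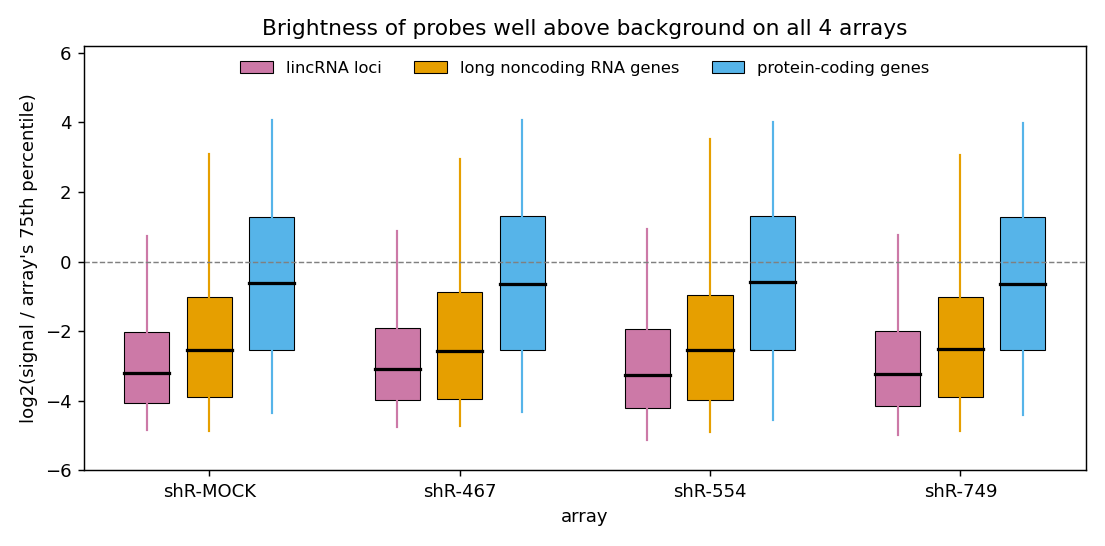
Boxes give the quartiles, the black line the median and the whiskers the 5th to 95th percentiles of the scaled log2 level, for probes well above background on all 4 arrays. The lincRNA medians lie between -3.26 and -3.09, below both other groups on every array.

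A few loci were as bright as abundant messenger RNAs, and most of these kept their level with all 3 hairpins. The brightest on the mock array was chr18:5232477-5246926 on the reverse strand, with signals of 140000 for the mock and 154000, 185000 and 161000 for hairpins 467, 554 and 749. After scaling, its mean change was 0.20 ± 0.12 (SD, n = 3 hairpins), under 1.5-fold with every hairpin. The next were chr2:20722919-20803669 forward, with a mock signal of 138000 and a mean change of 0.11 ± 0.03, and chr9:138785504-138809329 reverse, with a mock signal of 118000 and a mean change of 0.08 ± 0.10. The probe of the latter holds 83.3% G and C, and that of chr1:91997737-92078987 forward, with a mock signal of 52500, holds 36.7%. The remaining bright loci were chr2:179760655-179914805 and chr9:111293604-111458604 forward, chr2:81861889-82101789 reverse, chr20:31136358-31172876 forward, and the 2 exceptions described next. The longest run of bases that any of the 10 brightest probes shared with a probe of another name was 14, and matches to transcripts that the array does not probe were not tested.

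Of the 10 brightest loci, 2 fell by 1.5-fold or more with shR-749. The locus chr7:45983575-46089425 on the reverse strand had signals of 95700 for the mock and 94800, 66800 and 44300 for hairpins 467, 554 and 749, or changes of 0.18, -0.83 and -1.12. It was at the mock level with one hairpin and lower with the other two. The locus chr11:2016408-2017024 reverse lies in H19, an imprinted transcript of fetal liver, and had signals of 55300, 50100, 85200 and 33300 in the same order of arrays. It was highest with shR-554 and lowest with shR-749. Its mean change was -0.13 ± 0.55, and that of the array's own H19 probe -0.14 ± 0.44.

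Changes were counted over the 3819 loci well above background on all 4 arrays, relative to the mock array. A change of 1.5-fold is 0.58 on the log2 scale. With shR-467, 372 loci (9.74%) were higher and 219 (5.73%) lower, against 6.11% and 4.29% of all 21239 names tested. With shR-554, 219 (5.73%) were higher and 464 (12.1%) lower, against 4.50% and 7.93%. With shR-749, 232 (6.07%) were higher and 274 (7.17%) lower, against 5.25% and 6.24%. In each of these 6 counts the share of loci was above that of all names. The main direction differed between hairpins, since more loci were higher than lower with shR-467 and more were lower with shR-554 and shR-749. The 3 comparisons share the mock array.

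The counts varied with brightness for some hairpins and directions. Among loci with a mean level up to -4, 12.7% were higher with shR-467 and 18.5% lower with shR-554, against 5.43% and 2.24% of loci with a level above 0. Protein-coding genes gave 9.95% and 19.01% in the dim class and 2.88% and 3.19% in the bright class. The share of loci higher with shR-554 was the same in both classes, at 5.75%, and that of loci higher with shR-749 was 5.09% and 4.15%, with a peak of 9.55% at levels from -1 to 0. Of the loci changed with every hairpin, 4 of 1061 were higher and 1 lower in the dim class, and 3 of 313 were higher and 2 lower in the bright class. The median SD between hairpins was 0.34 in the dimmest loci and 0.20 in the brightest, and 0.32 and 0.16 in protein-coding genes. The part of brightness in the counts, and that of the higher negative controls of shR-554, was not tested.

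On the mean of the 3 hairpins, 110 loci (2.88%) were at least 1.5-fold higher and 153 (4.01%) at least 1.5-fold lower, against 2.34% and 2.88% of all names. Only 24 loci (0.628%) were higher and 12 (0.314%) lower by that much with every hairpin, against 0.570% and 0.471% of all names. These shares are near those of all names. Limma's moderated test, fitted over all 21239 names, called none of them at an adjusted p under 0.05 (0% of names). The smallest adjusted p among the loci was 0.772 with Benjamini-Hochberg adjustment. At an unadjusted p under 0.05 limma gave 40 loci (28 higher, 12 lower) of 3819, against 345 of all 21239 names (1.62%). The methods' t-test gave 69 of the 3819 loci at that level, against 569 of all 21239 names, with none after adjustment. In both tests the share of loci at that level was below that of all names. An exact permutation of 1 array against 3 cannot give a p below 0.25, so no locus could pass such a test. Limma is not bound by this limit, but it assumes that the lone mock array varies like the hairpins. With normexp background correction the every-hairpin counts were 6 higher and 5 lower, and leaving out shR-467 raised the mean count of lower loci to 268. With 2 hairpins required in place of 3, the counts were 71 and 95 without shR-467, 45 and 60 without shR-554, and 37 and 68 without shR-749.

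**Figure D3:**
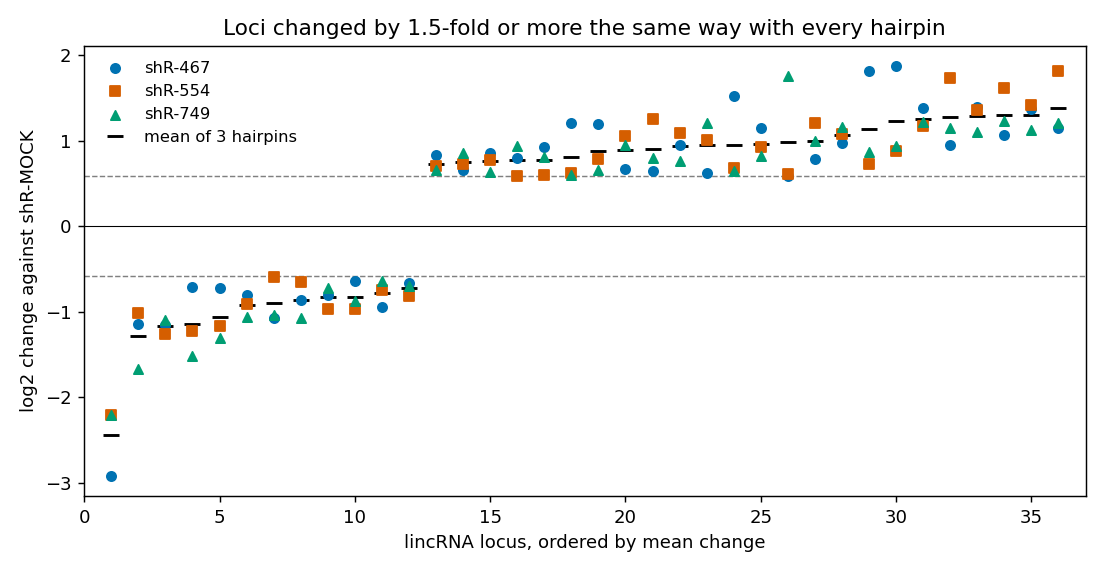
Each position on the x axis is 1 of the 36 loci changed by 1.5-fold or more the same way with every hairpin, and the y axis is the log2 change of each hairpin from the single mock array, with dashed lines at 1.5-fold. The 12 loci on the left fell, one of them far below the rest with a mean of -2.45, and the 24 on the right rose by 0.73 to 1.39.

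The 24 loci that were higher with every hairpin were mostly dim, with mock signals between 21.8 and 2160 and a median of 77.85. Of these 24, 19 lay on the forward strand, against 3484 of all 7048 loci. The 12 lower ones had mock signals of 76.1 to 5160 with a median of 328.5, and 7 of them lay on the forward strand. On at least one array, 3 of the higher and 2 of the lower loci had a signal under 2 times the lowest one marked as well above background.

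Of the loci higher with every hairpin, the largest mean rise was at chr17:75085388-75085575 on the forward strand, whose probe is that of SCARNA16, a small Cajal body RNA of the kind that guides modification of spliceosomal RNAs. Its signals were 209 for the mock and 404, 913 and 486 for hairpins 467, 554 and 749, all 3 hairpins above the mock, with a mean change of 1.39 ± 0.37 (SD, n = 3). The identical SCARNA16 probe, a separate spot, gave 204, 353, 835 and 470 and a mean change of 1.30 ± 0.38. The probes of 5 other loci, whose intervals overlap its own on that strand, had mean changes from -0.12 to 0.07. The nearest of these probes ends at chr17:75085333, and the others start at chr17:75089355 or beyond. The small RNA probe was thus higher with every hairpin while the probes of its surroundings were near the mock level. Of the 10 names of this RNA class tested, chosen after their values were seen, 9 had a positive mean change. Their median was 0.41 against 0.0032 for all names. On the mean, 4 of the 10 were at least 1.5-fold higher, where 2.34% of all names were. SCARNA16, with the probe sequence of the locus picked for its rise, is counted in the 9, in the median and in the 4, which raises them. Only 1 of them, SCARNA16 itself, reached 1.5-fold with every hairpin. SCARNA9, SCARNA12 and SCARNA17 fell short of that threshold under shR-467, at 0.05, 0.52 and 0.05.

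The NEAT1 span, chr11:65190190-65214674, held the second largest rise with every hairpin, and its probes split by position. Near the end of the long transcript, the probe at chr11:65212941-65213000 gave signals of 824, 1870, 2730 and 1820 on the mock array and with hairpins 467, 554 and 749. Every hairpin was more than 2-fold above the mock, with a mean change of 1.31 ± 0.16. The locus chr11:65202405-65204229 in the middle of the span gave 154, 278, 351 and 226 and a mean change of 0.82 ± 0.26. The probe named NEAT1 lies between these positions, at chr11:65206777-65206836, and gave 3670, 6820, 8050 and 4390, a mean change of 0.72 ± 0.43 that fell short of 1.5-fold with shR-749. All 3 positions lie past the interval of chr11:65190268-65193997, in the part of the span that belongs to long NEAT1 alone.

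The interval chr11:65190268-65193997, which short and long NEAT1 share, went the other way. Its brighter probe, at chr11:65193885-65193944, gave signals of 28600 for the mock and 14400, 30700 and 16800 for hairpins 467, 554 and 749, with changes of -0.79, -0.21 and -0.78. Its other probe, at chr11:65193578-65193637, gave 12600, 6360, 13600 and 6570 and changes of -0.79, -0.20 and -0.95. Both were more than 1.5-fold lower with shR-467 and shR-749 and under that threshold with shR-554. Another probe nearer the start, at chr11:65192209-65192268, gave 844, 671, 1210 and 775 and a mean change of -0.02 ± 0.20. These directions were the same under each of the 5 other scalings and background corrections for the probes of the interval and for the 3 positions beyond it. Of these 5, the raised floor for low signals could not alter the probes, since the filter already placed them above it. Median scaling shifts all probes of an array alike. The NEAT1 span was singled out after its values were seen.

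The MALAT1 span, chr11:65266349-65275177, also singled out after its values were seen, held probes that moved apart. The brightest forward probe, at chr11:65273511-65273570, holds the capitalised U-rich letters and gave 5160 for the mock and 2580, 3270 and 3150 for hairpins 467, 554 and 749, with a mean change of -0.83 ± 0.12. The probe named MALAT1, at chr11:65272873-65272932, gave 927, 563, 784 and 694 and a mean change of -0.50 ± 0.06, lower with every hairpin but short of 1.5-fold. The 3 probes further along, from chr11:65273714 on, had mean changes of 0.07 ± 0.42, -0.05 ± 0.40 and -0.01 ± 0.35 (0.03 with normexp). They were above the mock level with shR-749 only. These 3 lie past the probe with the U-rich letters and may lie beyond the cut end of MALAT1, so they need not read the mature RNA. The brightest forward probe and the probe named MALAT1, which lie before them, were both lower with every hairpin. On the opposite strand, 5 probes well above background on all 4 arrays had mean changes of 0.22 to 0.37.

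The largest fall of any tested locus was on chr3:194017423-194030592, reverse strand. Its signals were 444 for the mock and 51.2, 119 and 97.1 for hairpins 467, 554 and 749, so that all 3 hairpins were more than 4-fold below the mock, with a mean change of -2.45 ± 0.41. The overlapping locus chr3:194021473-194030427 on the same strand, whose sequence is printed above beside it, gave 582, 619, 707 and 512 and a mean change of 0.02 ± 0.24. Its twin, a probe of the same sequence named LOC100131551, gave 571, 605, 803 and 616. The fall was therefore that of 1 probe and not of every probe assigned to the region, and it rests on 1 mock array.

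Other falls with every hairpin were smaller. The locus chr1:84106887-84316837 forward went from 188 to 74.0, 115 and 59.5, a mean change of -1.28 ± 0.35, and chr6:2273482-2284008 reverse from 244 to 95.9, 126 and 115, a mean change of -1.17 ± 0.09. The latter had one of the smallest spreads between hairpins of all loci whose mean reached 1.5-fold, while 2 probes of loci overlapping it had mean changes of -0.31 and -0.15. The dim loci chr14:21907285-21923485 forward and chr20:37075627-37079447 reverse had mean changes of -1.15 ± 0.40 and -1.07 ± 0.31 from mock signals of 76.1 and 123, and -0.41 and -0.64 with normexp correction. The locus chr21:36744804-36953062 forward fell from 295 to 148, 195 and 142.

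In 2 places neighbouring loci both fell with every hairpin. On chromosome 7, forward strand, chr7:22900563-22901021 went from 1050 to 436, 866 and 515 (mean change -0.90 ± 0.27) and the adjacent chr7:22896146-22900458 from 262 to 126, 207 and 126 (-0.86 ± 0.21). A probe of chr7:22893925-22910450, which spans both, had a mean change of -0.71 ± 0.37, its other probe -0.27 ± 0.16, and an overlapping locus at the start side 0.11 ± 0.27. On chromosome 17, reverse strand, chr17:70399468-70588943 went from 1960 to 1100, 1240 and 1080 (-0.83 ± 0.17) and chr17:70442671-70443408, which lies within it, from 401 to 182, 297 and 260 (-0.78 ± 0.16). Of 7 tested probes of loci that overlap the larger of these, 5 had a negative mean change and 2 reached 1.5-fold. These counts include chr17:70442671-70443408 itself, and the other to reach 1.5-fold was chr17:70400230-70419167 (-0.68 ± 0.55). Probes of chr17:70400800-70417365 and chr17:70417969-70419213, placed between the probes of the falling loci, had mean changes of 0.22 ± 0.27 and 0.25 ± 0.29.

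Most other loci that rose with every hairpin were dim. The locus chr2:217380530-217421230 forward went from 21.8 to 39.9, 82.8 and 51.5, a mean change of 1.30 ± 0.28, and chr2:217384052-217394177 inside it from 87.2 to 147, 230 and 150, a mean change of 0.94 ± 0.16. The mock signal of the first was at the limit of detection, and the second was clear of it. Rises of 1.29 ± 0.16 and 1.26 ± 0.11 were seen at chr16:31681424-31694249 and chr6:6886124-6891047, both forward, from mock signals of 68.5 and 58.2. The loci chr16:88329099-88340399, chr1:35285888-35318988, chr5:757425-764350, chr6:64472483-64499031 and chr3:183165459-183170300, all forward, rose by 1.00 to 1.28 from mock signals of 28.0 to 58.2. With normexp correction the mean changes of these 5 were 0.38 to 0.70, that of chr2:217380530-217421230 was 0.49, and those of the chr16:31681424-31694249 and chr6:6886124-6891047 loci were 0.75 and 0.65. The brightest riser, chr7:112756783-112757127 reverse, had a mock signal of 2160 and a mean change of 0.89 ± 0.20.

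For 16 of these 20 named loci there was another probe of the same locus, or of a locus overlapping it on the same strand. Of 46 such probes, 35 passed the filter. Of these 35, 21 had a mean change of the same sign as the named locus, and 6 reached 1.5-fold in that direction. Some of these 6 belong to loci themselves counted as changed with every hairpin. Over all tested loci the median mean change was 0.04, and 2.88% were at least 1.5-fold higher and 4.01% lower on the mean. The share of same signs for unrelated pairs was not computed, so 21 of 35 does not show that the probes moved together. The 20 loci were chosen for large changes at single probes. The part of that choice in the smaller changes of other probes was not tested. Probes of overlapping loci can read different exons or different transcripts, which these data cannot tell apart.

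On chromosome 15 a long stretch of loci moved together with one hairpin. The span from SNRPN to IPW is a domain transcribed from the paternal chromosome only, whose long RNA hosts the SNORD116 small nucleolar RNAs. It was singled out after its values were seen. On the forward strand, the sense of that RNA, 38 of 40 locus probes were marked as well above background on every array, and they lie from chr15:25233319 to chr15:25367555. All 38 of these were higher with shR-749, by a median of 0.68, and 22 of the 38 reached 1.5-fold, where 5.25% of all names did. With shR-554, 27 were higher by a median of 0.20 and 5 reached 1.5-fold, against 4.50% of all names. With shR-467, 32 were higher by a median of 0.24 and 2 reached 1.5-fold, against 6.11%. On the reverse strand 16 of 28 probes were so marked, and 9 of these were higher with shR-749, by a median of 0.14, 10 with shR-554, by 0.02, and 15 with shR-467, by 0.31.

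Within this domain, chr15:25332807-25334252 gave signals of 681 for the mock and 895, 1290 and 2320 for hairpins 467, 554 and 749, with changes of 0.59, 0.61 and 1.76. The probe named SNORD116-19 lies next to it and gave 419, 528, 844 and 1430, changes of 0.53, 0.70 and 1.76. The probes named SNURF and SNRPN at the start of the domain had changes with shR-749 of 0.25 and 0.22, and those named PAR-SN and IPW further along 0.87 and 1.05. At these named probes the change with shR-749 was small at the coding start and larger beyond it. The 38 probes lie in overlapping loci of what may be 1 transcript and are not independent. Under each of the 5 other scalings and background corrections all 38 were higher with shR-749, with medians from 0.54 to 0.70. Of these 5, the raised floor could not alter probes that passed the filter.

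**Figure D4:**
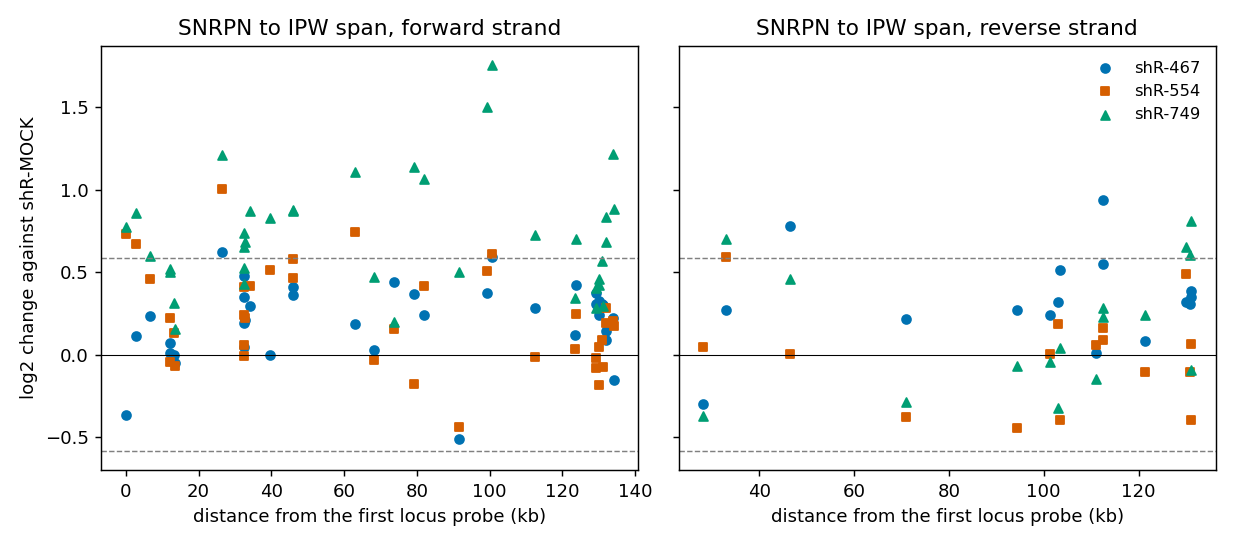
Points give the log2 change of each hairpin from the mock array for locus probes well above background on all 4 arrays in the SNRPN to IPW span, on the forward strand (left, 38 probes) and the reverse strand (right, 16 probes), against the distance in kb from the first of them. Dashed lines mark 1.5-fold. All 38 forward triangles (shR-749) lie above 0, against 9 of 16 on the reverse strand.

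Some loci were far from the mock with 1 hairpin and nearer to it with the other two. The locus chr3:31240646-31375271 forward gave 16300 for the mock and 16100, 2690 and 13100 for hairpins 467, 554 and 749, a change of -2.91 with shR-554 alone. The locus chr10:62560694-62570894 forward rose with the same hairpin only, from 40.6 to 387, with 39.4 and 37.1 on the other hairpin arrays. With shR-749, chr2:134708080-134794155 reverse went from 54.2 to 492, chr6:24740171-24758921 forward from 47.1 to 333 and chr11:122009090-122080940 reverse from 42.0 to 258. The last of these was also lower with shR-554, by a change of -0.62. Among loci whose mean change reached 1.5-fold, these 5 had the widest spread between hairpins, with SDs of 1.66 and above. The highest mean change of all tested loci, 1.41 ± 1.64 at chr5:134465126-134592001 forward, also came mostly from shR-554, with changes of 0.30, 3.30 and 0.63. At the other end, chr11:68040524-68046124 and chr2:39745746-39826668 forward had SDs of 0.07 and 0.08 around mean changes of -0.60 and -0.73, and chr2:70220914-70246326 reverse an SD of 0.08 around 0.58. With normexp correction these means were -0.46, -0.60 and 0.38.

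Some loci were measured in one group only, and here only a bound can be given. A probe dimmer than the lowest signal marked as well above background on an array was set to that signal, or to its own where higher, and the fold is at least the difference from it. Of the 7873 locus probes, 207 (2.63%) were well above background on the mock array and on no hairpin array, against 1.76% of protein-coding probes, and 10 of these bounds reached 1.5-fold. The largest was at chr5:6933782-7190925 forward, with 175 on shR-MOCK and 11.7, 14.0 and 5.30 with the hairpins, at least 6.87-fold lower. Next came chr3:106959538-107045811 forward, from 154 to 5.16, 6.30 and 5.17, at least 6.05-fold lower, and chr19:21738810-21785185 reverse, from 117 to 5.58, 6.90 and 5.53, at least 4.60-fold lower. The loci chr2:198420155-198427205 reverse and chr9:118588179-118601004 forward were at least 2.84-fold and 2.20-fold lower.

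In the other direction, 7 probes (0.0889%) were well above background with all 3 hairpins and not on the mock array, against 0.0577% of protein-coding probes, and all 7 bounds reached 1.5-fold. The locus chr2:208380030-208393355 forward had 18.1 on shR-MOCK and 37.9, 396 and 256 with the hairpins, at least 7.17-fold higher on their mean, with shR-467 close to the limit of detection. The locus chr12:2035164-2049639 forward, with 19.1 on the mock array and 75.3, 144 and 33.4, was at least 3.26-fold higher. The loci chr17:38679761-38683252 and chr7:126990389-127006297 reverse and chr11:104771490-104780740 forward were at least 2.03-fold, 1.90-fold and 1.76-fold higher. Their hairpin signals were only 30.5 to 52.9, where the lowest marked signals were 25.5, 28.3 and 25 with hairpins 467, 554 and 749. With shR-554 they gave 42.9, 41.1 and 52.9, below the 99th percentile of that array's negative controls (71.7). The counts of 207 and 7 are not alike by rule, since one asks for 1 array and the other for 3. The bounds are not alike either. The lowest marked signal was 21.2 on the mock array, with a 75th percentile of 1120. Relative to that percentile it was lower than on each hairpin array, which raises the bounds of rises and lowers those of falls. On single arrays, 144 probes were well above background with shR-467 alone, 82 with shR-749 alone and 76 with shR-554 alone, and the share of all probes on the array with that mark was 70.6% for the mock against 64.0% to 66.9% for the hairpins.

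Sense and antisense reads of an interval were compared for the 2012 intervals probed on both strands. Both strands were well above background on all 4 arrays in 705 (35.04%), the forward strand alone in 425 (21.1%), the reverse strand alone in 440 (21.9%) and neither in 442 (22.0%). Across the 705 pairs the mean changes on the strands had a Pearson r of 0.09, given as a description, since the pairs share arrays. Both strands reached 1.5-fold on the mean in the same direction in 5 pairs and in opposite directions in 1. Among the brightest loci, chr2:107293518-107358418 and chr6:127681282-127704857 forward were read by 2 probes and chr3:106619835-106630535 reverse had a detected opposite strand, and each stayed within 1.5-fold of the mock with every hairpin.

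Repeated probes gave the spread between single spots. In 17 cases a locus probe had the same sequence as a probe of another name, and the changes of the 2 spots differed by a median of 0.16, with a 95th percentile of 0.56 over the 3 hairpins. The other names included the protein-coding genes RDX, BMPR1A and NASP, and such spots cannot tell locus from gene. In 68 loci a probe of a RefSeq protein-coding gene lay inside on the same strand. Where a locus had more than 1 probe well above background on all 4 arrays (309 loci), the mean changes of its probes spanned a median of 0.16, and in 27 loci they spanned 1.5-fold or more. A single locus at the 1.5-fold threshold with 1 hairpin was thus close to the spread between identical spots.

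Some loci contain a probe of a known long noncoding RNA gene on the same strand, and in 59 such pairs both were well above background on all 4 arrays. In 55 of the 59 pairs the mean changes were within 1.5-fold of each other. The quartiles of the mean change were -0.15 and 0.19 over all tested loci and -0.10 and 0.22 over long noncoding RNA genes. Most changes were thus small, the share for unrelated pairs was not computed, and the count does not show that locus and gene moved together. Some genes, such as PVT1 and IPW, recur in several pairs. Mean changes are given for GAS5 and SNHG10, each with a pair outside that range and chosen after their values were seen. In GAS5, a small nucleolar RNA host that accumulates in arrested cells, chr1:173831852-173837251 reverse had 0.16 and the gene's probe 0.14, while chr1:173831852-173837202 reverse had -0.60. In SNHG10, the host of a small Cajal body RNA, chr14:95988347-96000872 reverse had -0.76 and the gene's probe 0.64, the widest difference of the 59.

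The nearest genes of the named loci mostly stayed within 1.5-fold of the mock on the mean, as most names did. Of all names, 2.34% were at least 1.5-fold higher on the mean and 2.88% lower. A named gene within 100 kb, well above background on all 4 arrays, was found for 14 of the 20 named loci. Among these genes, NEAT1 and MALAT1 have their probes inside the locus itself. EYS, a photoreceptor gene, reached 1.5-fold on the mean, with -0.92 ± 0.51, opposite to its locus chr6:64472483-64499031, and NEAT1 did so inside its own locus. CPN2, a liver-made plasma carboxypeptidase subunit, had a mean change of 0.50 ± 0.31 beside the largest fall on chromosome 3. Over all loci the mean changes of locus and nearest gene on the same strand had a Pearson r of 0.11 over 1376 pairs within 100 kb, 0.20 over 493 pairs within 10 kb, and 0.05 over 1233 pairs on opposite strands within 100 kb. These are descriptions, since the pairs share the 4 arrays.

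Named long noncoding RNA genes and the proteins that act with lincRNAs were read beside the loci. Of 54 listed long noncoding RNA genes, 35 were on the array and 27 were well above background on all 4 arrays, with a median mean change of 0.14. On the mean, 3 of the 27 were at least 1.5-fold higher, where 2.34% of all names were: NEAT1, TERC (the telomerase RNA, 0.59 ± 0.04) and SNHG10. UCA1, a transcript first described in bladder cancer, was the one that changed by 1.5-fold with every hairpin, from 11700 on the mock array to 2720, 6430 and 3870 with hairpins 467, 554 and 749, a mean change of -1.56 ± 0.37. None of 32 tested genes for chromatin partners and histone K4 and K36 methyltransferases, and none of 27 for the nuclear RNA exosome and its adaptors, reached 1.5-fold on the mean in either direction, with medians of -0.03 and -0.02. All names tested had a median of 0.0032, and with 2.34% of them higher and 2.88% lower on the mean, counts of 0 in lists of this size are near the share over all names.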

How the data were processed

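Total RNA of the 4 samples was labelled with Cy3 and hybridised to 1 array design. The deposited scanner output holds for each spot a mean, a background and a processed signal intensity, which the authors made with Agilent Feature Extraction 10.7.1.1 (name and version from the submitters' processing notes). The authors also deposited a table of log2 values per probe, used as an alternative. Marked outlier spots were dropped, and processed signals were put on the log2 scale, centred on each array's 75th percentile over spots other than controls and averaged per probe. A probe was kept when well above background on all 4 arrays, and a name was represented by its kept probe of highest mean. All 7873 locus probes had 1 spot and no spot was saturated. Of these probes, 72 have no position in the array annotation. Changes were counted at 1.5-fold, the threshold of the study's methods, and tested with limma 3.58.1 (lmFit, eBayes with trend, all names, 3 hairpins against 1 mock array, which is assumed to vary like them). The test was first run on simulated data. Names were matched to the RefSeq gene table of GRCh38.p14 for gene class only, and hg19 positions come from the annotation in the scanner output. The number of arrays limits the precision.

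The members and gene lists were chosen with earlier results of these data known. Loci were named by rule: the 10 largest mean rises and falls among loci changed with every hairpin, the 10 brightest on the mock array, the 5 narrowest and 5 widest spreads between hairpins among loci whose mean change reached 1.5-fold, the brightest loci with several probes or both strands, the 5 largest bounds in each direction, and the nearest genes of the first group. Scalings, background correction, filters, thresholds and left-out hairpins were tried as alternatives. Probe sequences are those of the deposited scanner output.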

Additional observations from a re-analysis of the deposited data

How the results depend on the processing

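The counts of loci changed by 1.5-fold or more stayed within 1.5 times of the main count under quantile normalization, median scaling, the authors' processed values, a raised floor, outlier spots kept and averaging over probes. The raised floor could not alter a locus probe that passed the filter, so its counts were fixed by rule. With normexp correction and quantile normalization the counts were 38 higher and 30 lower on the mean, and 6 and 5 with every hairpin. With the single hairpins 467, 554 and 749 they were 279, 226 and 200 in either direction. The cause was not tested. With a filter that asked for the mock array alone or for all 3 hairpin arrays (4881 loci), 504 were lower on the mean and 49 lower with every hairpin. With single hairpins 1001, 1351 and 903 changed. This filter admits loci detected on the mock array only but asks for 3 arrays on the other side. Its rule thus favours falls, and its counts of lower loci say nothing about direction. With no filter (7046 loci) the counts were 478 and 838, 65 and 133, and 1798, 2241 and 1683. At 2-fold they were 18 and 20, 5 and 3, and 175, 241 and 129. Leaving out 1 hairpin in turn gave 143 to 157 higher and 140 to 268 lower on the mean, and 37 to 71 higher and 60 to 95 lower with both remaining hairpins, the highest of each without shR-467. Among loci with signals at least 2 times the lowest one well above background on every array, an alternative chosen after seeing the data, 77 were lower on the mean and 367, 408 and 326 changed with single hairpins. Leaving out probes that share 20 bases with another name, also chosen afterwards, changed no count by over 1.5 times. Limma called no locus under any alternative run. The slide could not be fitted as a block, and this was not run.

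With detection set at the 99th percentile of the negative controls, 86.6%, 84.4%, 41.0% and 69.7% of the locus probes passed on the mock array and those of hairpins 467, 554 and 749. The median level of loci minus that of protein-coding genes was -2.04 with normexp and -3.005 with 1 probe per name. Of the 348 values of 29 named loci under alternatives, 345 kept their sign. Leaving out 1 hairpin in turn gave mean changes of -0.34 to 1.27 at chr11:122009090-122080940, -0.19 to 1.33 at chr6:24740171-24758921 and -0.20 to 1.58 at chr2:134708080-134794155, each lowest and negative without shR-749. All 20 loci named for a rise or fall kept the sign of their mean change under the 5 other scalings and corrections, of which the raised floor could not alter them. Under normexp, 9 of the 20 still reached 1.5-fold with every hairpin. Signal over background limits the dim loci: the lower quartile of the mock signals of detected locus probes was 67.3. No paired analysis was possible because the mock group has 1 array. No result met the criteria for a closer look, since groups of 1 and 3 arrays cannot be tested for outliers.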
